A study of Mus musculus with 6 samples.

Results

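The 38 genes described here are induced by type I interferon, the cytokine family of interferon α and β. They were listed by symbol as known interferon-stimulated genes, with earlier results of these data in view, and all 38 were found among the 24062 genes counted in mouse dorsal root ganglion (DRG) and neurofibroma RNA. RNA-seq was performed on 6 mice, 3 per genotype, to ask how deletion of *Runx1* and *Runx3* changed gene expression in tumors that lack *Nf1*. Mice of the first genotype were *Nf1fl/fl;DhhCre*, and those of the second were also floxed for *Runx1* and *Runx3*. The label of the second genotype, *Rx1flfl;Rx3fl/fl;DhhCre*, leaves out *Nf1fl/fl*, which the RNA extraction note and the study's methods give it. It is called labelled double knockout here. Both genotypes thus carry floxed *Nf1* and *DhhCre*, a Cre recombinase driven by the *Dhh* promoter, which is active in the Schwann cell (SC) lineage. Deletion is thus directed to that lineage, and in which cells of the tissue the floxed genes were recombined was not measured here. The strain is given as *C57BL/6-I129* in every sample, and the age of these mice is not given in the sources used here. The tissue is labelled DRG in the first genotype and neurofibroma tumor in the second, while the methods call both DRG/tumors. The study's results text instead names tumors for the first and DRG/tumors for the second. Sensory neuron markers, given below, were higher in the second. Genotype and labelled tissue cannot be told apart, and the sources differ on the tissue.

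Cells that detect viral or misplaced nucleic acid secrete type I interferon. Interferon binds the receptor pair IFNAR1 and IFNAR2 on the same or other cells, whose kinases JAK1 and TYK2 phosphorylate transcription factors of the STAT family. With IRF9 these form ISGF3, which binds a DNA element called the interferon-stimulated response element (ISRE). The genes it switches on sense nucleic acid, block viral entry and translation, attach the ubiquitin-like protein ISG15 to other proteins, and feed back on the receptor. Interferon γ uses another receptor, acts through a site called GAS, and shares part of these target genes. Macrophages and other leukocytes express many interferon-stimulated genes at a higher basal level than most other cells.

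The DNA in front of the start sites was read first, because the ISRE is the element through which ISGF3 acts. RefSeq promoters (GRCm38.p6, 250 bases before the start to 50 from it) were matched for 29 of the 38 genes. The ISRE was searched as GAAANNGAAA or, on the other strand, TTTCNNTTTC, and was present in 11 of 29 (37.9%), against 3.99% of 27025 genes with a promoter. The matching sequences in front of 6 of them are shown, the members whose ISRE lay before the start, with the ISRE in capitals. Each is read 5′ to 3′ on the strand of the gene.

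*Isg15* (chr4:156200850-156200921, minus strand): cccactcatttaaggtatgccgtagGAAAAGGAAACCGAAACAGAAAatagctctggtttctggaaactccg
*Trim30a* (chr7:104465195-104465254, minus strand): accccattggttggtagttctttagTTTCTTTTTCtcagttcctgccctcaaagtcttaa
*Bst2* (chr8:71537562-71537627, minus strand): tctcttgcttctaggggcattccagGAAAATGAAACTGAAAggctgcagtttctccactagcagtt
*Rsad2* (chr12:26456538-26456597, minus strand): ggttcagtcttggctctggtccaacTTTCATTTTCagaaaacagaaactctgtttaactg
*Ifit3* (chr19:34583348-34583441, plus strand): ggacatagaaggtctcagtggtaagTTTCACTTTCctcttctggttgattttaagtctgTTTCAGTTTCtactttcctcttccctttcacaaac
*Ifit1* (chr19:34640760-34640838, plus strand): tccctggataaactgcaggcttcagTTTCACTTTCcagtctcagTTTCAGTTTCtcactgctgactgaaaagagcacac

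*Isg15* held 3 overlapping matches in 1 run, *Bst2* held 2 that overlap, and *Ifit1* and *Ifit3* each held 2 separate ones. The other members with an ISRE were *Ddx58*, *Eif2ak2*, *Ifih1*, *Ifitm3* and *Trim21*, with the match at or after the start. The GAS element, TTCNNNGAA, was in 9 of the 29 promoters (31.0%) against 9.55% of all genes. The RUNX motif TGTGGT, searched on both strands, was in 5 of the 29 (17.2%) against 18.9% of all genes, and those 5 were *Adar*, *Cmpk2*, *Isg20*, *Samhd1* and *Znfx1*. These are matches of letters in a short window and do not show that a factor was bound.

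All 38 genes passed the filter on low counts and were tested with 15652 genes in all, by limma-voom, and p-values were adjusted over the 15652 by the Benjamini-Hochberg method. Levels are CPM, counts relative to the TMM-normalized size of each library, and a gene was called when its adjusted p was below 0.05 and its change above 2-fold. In the libraries labelled double knockout 22 of the 38 were called lower (57.9%), where 5.36% of all genes tested were called lower. None was called higher, by limma-voom, edgeR or DESeq2 or at an unadjusted p below 0.05 (0 of 38), where 8.03% of all genes were called higher by limma-voom. Of all genes 6.23% were called lower by edgeR and 7.9% by DESeq2, and 16.1% were lower and 19.1% higher at an unadjusted p below 0.05, and counts by these settings below are to be read against those shares. The estimate was below 0 for all 38, as for 48.9% of all genes, and 24 of 38 were lower at the adjusted p alone, as were 8.22% of all genes. In 34 of the 38 (89.5%) every library labelled double knockout lay below every *Nf1fl/fl;DhhCre* library, which held for 20.5% of all genes. The median log2 fold change (log2FC) was -1.24 over the 38 genes and 0.02 over all genes tested. Their summed level was 2678 to 4940 CPM in *Nf1fl/fl;DhhCre* and 1172 to 1543 CPM in the labelled double knockout, 2.62-fold lower by the means. With 1 library left out, 5 of the 38 were called without *Nf1fl/fl;DhhCre* replicate 1 (1.13% of all genes), and 14, 5 and 11 without labelled double-knockout replicates 1, 2 and 3 (3.59%, 2.04% and 2.96% of all genes). In bulk tissue, fewer cells of a type and less RNA per cell cannot be told apart.

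**Figure D1:**
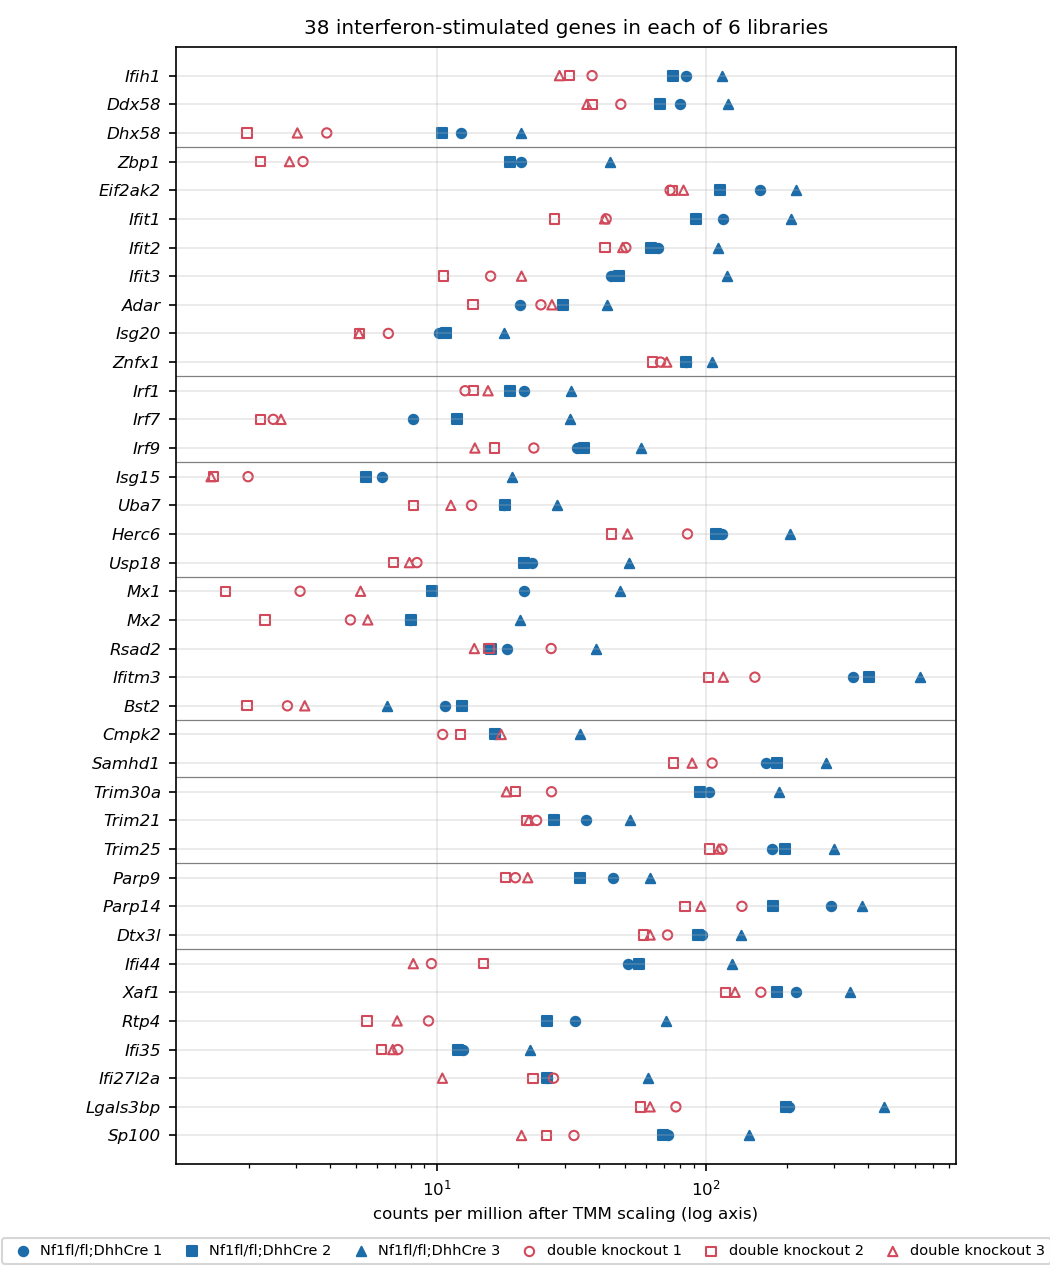
Level of each of the 38 genes in each of the 6 libraries, in CPM after TMM normalization on a log axis, with filled blue symbols for *Nf1fl/fl;DhhCre* and open red symbols for the labelled double knockout, 1 symbol shape per replicate. The red symbols lie to the left of the blue ones in 34 rows, and overlap them in *Adar*, *Rsad2*, *Cmpk2* and *Ifi27l2a*. Horizontal lines separate the functional groups used in the text.

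**Figure D2:**
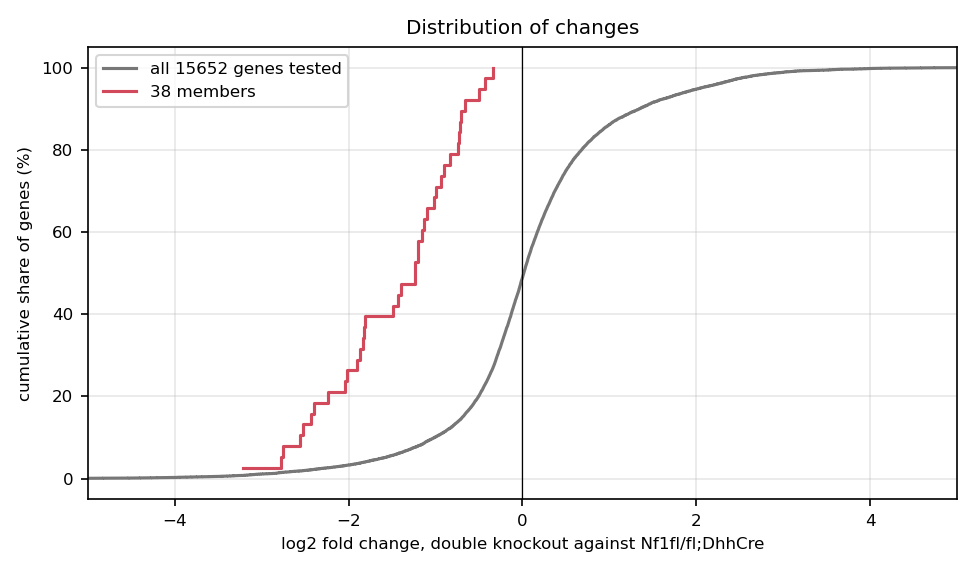
Cumulative share of genes, in percent, against the log2FC of the labelled double knockout against *Nf1fl/fl;DhhCre*, for the 38 interferon-stimulated genes (red) and all 15652 genes tested (grey). The red curve ends at -0.34 (*Rsad2*), left of 0, and crosses 50% near its median of -1.24, while the grey curve has its median at 0.02.

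The libraries held 12439296 to 16682194 counts, so that 3 counts correspond to 0.179 to 0.247 CPM, and no member had fewer than 18 counts in any library. Several facts about the libraries bear on all values below. *Runx1* was at 131, 141 and 172 CPM in *Nf1fl/fl;DhhCre* and at 84.0, 78.9 and 185 CPM in the labelled double knockout. Replicate 3 of the latter thus had the highest level of all libraries. Bulk counts pool the SC lineage with other cells, so they cannot decide whether the label of that replicate is right. *Runx3* was lower in the labelled double knockout (10.3 to 13.5 CPM against 15.1 to 29.9 CPM), with an adjusted p of 0.104, and *Nf1* had a log2FC of -0.06. Skeletal muscle genes summed to 2547 CPM in *Nf1fl/fl;DhhCre* replicate 2 and 11109 CPM in labelled double-knockout replicate 2, against at most 65.8 CPM in the other libraries. For 4 libraries, replicates 1 and 2 of *Nf1fl/fl;DhhCre* and replicates 2 and 3 of the labelled double knockout, the title and the deposited data name different mice of the same genotype. This leaves their genotype unchanged but not which mouse a replicate is. One library labelled double knockout came from another sequencing run and is, for this reason, either replicate 2 or replicate 3. Without *Nf1fl/fl;DhhCre* replicate 2, 23 of the 38 genes were called lower (6.45% of all genes), and the counts without each of the others are given above. Without both libraries with muscle genes 16 of the 38 genes were called lower (4.56% of all genes).

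The RNA sensors were lower as a group, with 3 of 3 called and a median log2FC of -1.49. The count was 1, *Ifih1*, without *Nf1fl/fl;DhhCre* replicate 1 or without labelled double-knockout replicate 2 or 3. *Ddx58* also lost the call without *Nf1fl/fl;DhhCre* replicate 3. *Ifih1* (chr2:62595798-62646255 of GRCm38) encodes MDA5, which binds long double-stranded RNA. It was at 84.6, 75.4 and 115 CPM in *Nf1fl/fl;DhhCre* and at 37.8, 31.1 and 28.6 CPM in the labelled double knockout. The groups were well apart, and the log2FC was -1.49 (SE 0.21, adjusted p = 0.00974). *Ddx58* (chr4:40203773-40239828) encodes RIG-I, the sensor of RNA ends that carry a triphosphate. Its levels were 80.0, 67.4 and 121 CPM against 48.3, 38 and 36.1 CPM, again without overlap, and the change was smaller at -1.10 (SE 0.25, adjusted p = 0.0259). *Dhx58* (chr11:100694884-100704271) encodes LGP2, which modulates both other sensors, and had the lowest levels of the group. It fell from 12.3, 10.4 and 20.5 CPM to 3.90, 1.97 and 3.04 CPM, by 2.24 on the log2 scale (SE 0.44, adjusted p = 0.0185).

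Among 8 effectors that bind nucleic acid, 5 were called lower, 7 did not overlap and the median log2FC was -1.09. All 5 lost the call without *Nf1fl/fl;DhhCre* replicate 1, and also without labelled double-knockout replicate 2. *Ifit3* also lost it without labelled double-knockout replicate 1 or 3. *Zbp1* (chr2:173206612-173218923), a sensor of left-handed nucleic acid that can trigger cell death, showed the largest decrease of all 38 genes. It was at 20.6, 18.6 and 44.1 CPM in *Nf1fl/fl;DhhCre* and at 3.19, 2.22 and 2.84 CPM in the labelled double knockout, a 9.28-fold lower level (log2FC -3.21, SE 0.58, adjusted p = 0.0147). Every *Nf1fl/fl;DhhCre* library was far above every library of the other genotype. *Eif2ak2*, the kinase PKR that halts translation when it binds double-stranded RNA, was just past the 2-fold limit. It was at 159, 113 and 216 CPM against 73.6, 75.2 and 82.6 CPM, with a log2FC of -1.02 (SE 0.24, adjusted p = 0.0283), and it lost the call in 5 of the 6 fits without 1 library. *Isg20*, an RNA exonuclease, was called at -1.16 (SE 0.31, adjusted p = 0.0422), and was no longer called when any 1 of the 6 libraries was left out.

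IFIT1 binds viral RNA that lacks the host's cap methylation, and the IFIT genes lie side by side on chromosome 19. *Ifit1* (chr19:34640871-34650009) was at 115, 92.2 and 207 CPM in *Nf1fl/fl;DhhCre* and at 42.6, 27.4 and 42.1 CPM in the labelled double knockout. Its log2FC was -1.82 (SE 0.34, adjusted p = 0.0164). *Ifit3* (chr19:34583531-34588731) was at 44.4, 47.7 and 120 CPM against 15.9, 10.6 and 20.7 CPM, with a change of -2.04 (SE 0.48, adjusted p = 0.0282). *Ifit2* (chr19:34550694-34576419), their neighbour, was at 66.5, 62.4 and 111 CPM against 50.4, 42.2 and 49.1 CPM. Its groups did not overlap either, but the gap was narrow, and the estimate of -0.71 did not pass the test (adjusted p = 0.0802). *Ifit1* and *Ifit3* have the separate ISREs printed above, and the *Ifit2* promoter held none in its window. The IFIT genes are related in sequence, and how reads that fit more than 1 of them were counted is not given in the sources used here.

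*Adar* and *Znfx1* did not pass the test. *Adar*, which edits adenosine in double-stranded RNA, was at 20.4, 29.5 and 43.0 CPM against 24.4, 13.7 and 26.8 CPM, and the groups overlapped (log2FC -0.50, adjusted p = 0.351). Of its exon bases 16.8% are shared with *Chrnb2*, a nicotinic receptor gene that was higher in the labelled double knockout (log2FC 2.46, adjusted p = 0.0134), so that some reads could belong to either gene where strand was not used. *Znfx1*, an RNA helicase, had levels of 84.5, 84.4 and 106 CPM against 67.8, 63.5 and 71.6 CPM (log2FC -0.43, adjusted p = 0.0755).

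Of 3 interferon-regulated transcription factors, *Irf9* alone was called, while none overlapped. Its call was lost without *Nf1fl/fl;DhhCre* replicate 1 or 3 and without labelled double-knockout replicate 2 or 3. *Irf9* (chr14:55603571-55610030) encodes the DNA-binding part of ISGF3 that reads the ISRE. It was at 33.2, 35.2 and 57.2 CPM in *Nf1fl/fl;DhhCre* and at 23.0, 16.4 and 13.9 CPM in the labelled double knockout (log2FC -1.24, SE 0.29, adjusted p = 0.0279). *Irf7*, which drives the interferon α genes themselves, had a larger estimate and a wider spread. It was at 8.18, 11.9 and 31.3 CPM against 2.47, 2.22 and 2.64 CPM, and its log2FC of -2.56 (SE 0.74) had an adjusted p of 0.0510. *Irf1*, which interferon γ also induces, was at 21.2, 18.7 and 31.6 CPM against 12.8, 13.7 and 15.5 CPM (log2FC -0.72, adjusted p = 0.0814).

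The ISG15 conjugation genes held 2 called of 4, with none overlapping and a median log2FC of -1.57. Both calls, of *Usp18* and *Herc6*, were lost without *Nf1fl/fl;DhhCre* replicate 1 and without labelled double-knockout replicate 2 or 3. That of *Usp18* was also lost without labelled double-knockout replicate 1, and that of *Herc6* without *Nf1fl/fl;DhhCre* replicate 3. *Isg15* (chr4:156199424-156200818), the ubiquitin-like modifier, was at 6.24, 5.48 and 19.1 CPM in *Nf1fl/fl;DhhCre* and at 1.99, 1.48 and 1.45 CPM in the labelled double knockout. Replicate 3 of *Nf1fl/fl;DhhCre* was more than 3 times as high as either other library of its genotype, and the estimate of -2.40 (SE 0.76) did not pass the test (adjusted p = 0.0670). *Usp18* (chr6:121245906-121270917) encodes the protease that removes ISG15 and restrains the interferon receptor. It was at 22.7, 21.1 and 51.8 CPM against 8.45, 6.91 and 7.92 CPM, with a log2FC of -1.91 (SE 0.44, adjusted p = 0.0278). *Herc6*, the ligase that attaches ISG15 in mice, was at 115, 109 and 205 CPM against 85.4, 44.6 and 51.2 CPM and was called at -1.24 (adjusted p = 0.0371). The activating enzyme *Uba7* had an estimate of -0.94 and missed both limits (adjusted p = 0.0556).

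The restriction factors of membranes and the Mx GTPases divided, with 2 of 5 called. *Ifitm3* (chr7:141009586-141010770), which blocks fusion of viruses in endosomes, had the highest level of the 38 genes per kilobase of exon in both genotypes (679 and 182 CPM per kb). It was at 352, 404 and 626 CPM in *Nf1fl/fl;DhhCre* and at 152, 103 and 116 CPM in the labelled double knockout. The groups were far apart, with a log2FC of -1.87 (SE 0.25, adjusted p = 0.00919). *Bst2* (chr8:71534255-71537456), or tetherin, which holds budding virus at the cell surface, was at 10.8, 12.4 and 6.54 CPM against 2.79, 1.97 and 3.23 CPM. It was called at -1.84 (SE 0.41, adjusted p = 0.0251), and it was the only member with *Nf1fl/fl;DhhCre* replicate 3 as the lowest of its genotype. Its call was lost without *Nf1fl/fl;DhhCre* replicate 1 and without labelled double-knockout replicate 1, 2 or 3.

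*Mx1* and *Mx2* belong to a family of dynamin-like GTPases that restrict viruses, and *Mx2* is annotated as a polymorphic pseudogene. Whether either gene makes a working protein in these mice was not measured. *Mx1* was at 21.2, 9.59 and 48.2 CPM in *Nf1fl/fl;DhhCre* and at 3.11, 1.64 and 5.22 CPM in the labelled double knockout. The levels did not overlap, but the *Nf1fl/fl;DhhCre* values were widely spread, and the estimate of -2.76 (SE 0.91) did not pass the test (adjusted p = 0.0746). *Mx2* had an estimate of -1.43 (adjusted p = 0.108). *Rsad2*, or viperin, an enzyme that makes a chain-terminating nucleotide, had the smallest estimate of the 38 genes. It was at 18.3, 15.8 and 39.0 CPM against 26.6, 15.6 and 13.8 CPM, with the groups overlapping (log2FC -0.34, SE 0.40, adjusted p = 0.591). Its promoter holds the ISRE printed above.

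*Cmpk2* lies next to *Rsad2* on chromosome 12 and encodes a nucleotide kinase of mitochondria. It too overlapped, at 16.4, 16.4 and 34.2 CPM against 10.5, 12.3 and 17.4 CPM (log2FC -0.66, adjusted p = 0.233). *Samhd1*, which breaks down the deoxynucleotides that viruses need, was called at -1.20 (SE 0.23, adjusted p = 0.0164). Its levels of 168, 184 and 279 CPM were all above the 106, 75.7 and 88.9 CPM of the labelled double knockout. Its call was lost without *Nf1fl/fl;DhhCre* replicate 1 or 3 and without labelled double-knockout replicate 2.

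Of the TRIM ubiquitin ligases *Trim30a* (chr7:104409025-104465193), a mouse gene that restrains inflammatory signalling, had the lowest adjusted p of the 38 genes. It was at 102, 94.7 and 187 CPM in *Nf1fl/fl;DhhCre* and at 26.7, 19.6 and 18.2 CPM in the labelled double knockout, with no overlap and a log2FC of -2.53 (SE 0.33, adjusted p = 0.00865). It has near copies in the same cluster (*Trim30b*, *Trim30d*), between which reads could be split. *Trim25*, which activates RIG-I, passed the adjusted p (0.0209) at -0.99, just under the 2-fold limit. *Trim21*, an intracellular antibody receptor, had an estimate of -0.73 (adjusted p = 0.0870).

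*Parp14*, *Dtx3l* and *Parp9* lie in 1 cluster on chromosome 16, and PARP9 and DTX3L act as a pair in ADP-ribosylation and ubiquitin transfer after interferon. *Parp14* (chr16:35832874-35871544) was at 292, 178 and 381 CPM against 136, 83.7 and 95.8 CPM and was called at -1.39 (SE 0.31, adjusted p = 0.0240). *Parp9* was called at -1.20 (adjusted p = 0.0220). Both *Parp14* and *Parp9* lost the call without *Nf1fl/fl;DhhCre* replicate 1 or 3 and without labelled double-knockout replicate 2. *Parp14* also lost it without labelled double-knockout replicate 3, and *Parp9* without replicate 1 of that genotype. *Dtx3l*, which shares 8% of its exon bases with *Parp9*, was lower by the adjusted p (0.0324) at -0.74, under the 2-fold limit. None of the 3 overlapped between genotypes.

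The remaining 7 interferon-induced genes held 5 called, with a median log2FC of -1.81. Of these, *Rtp4*, *Sp100* and *Ifi35* lost the call without *Nf1fl/fl;DhhCre* replicate 1, and also without labelled double-knockout replicate 2. *Ifi44* and *Lgals3bp* were called in both fits. *Rtp4* also lost the call without labelled double-knockout replicate 1 or 3. *Ifi44* (chr3:151730922-151749960) was at 51.5, 56.4 and 125 CPM in *Nf1fl/fl;DhhCre* and at 9.56, 14.9 and 8.19 CPM in the labelled double knockout. With a 6.86-fold lower level it followed *Zbp1* among the genes called (log2FC -2.78, SE 0.46, adjusted p = 0.0127). *Lgals3bp* (chr11:118392751-118402092), a secreted glycoprotein that binds galectins, was at 203, 198 and 458 CPM against 77.4, 57.3 and 62.1 CPM. The groups were far apart, and the log2FC was -2.02 (SE 0.35, adjusted p = 0.0137). *Rtp4*, a chaperone of membrane receptors, was called at -2.44 (SE 0.51, adjusted p = 0.0209), from 32.6, 25.8 and 71.2 CPM to 9.32, 5.51 and 7.13 CPM.

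*Sp100*, a component of PML nuclear bodies, was at 72.3, 69.2 and 145 CPM in *Nf1fl/fl;DhhCre* and at 32.4, 25.6 and 20.7 CPM in the labelled double knockout. It was called at -1.81 (SE 0.34, adjusted p = 0.0165). *Ifi35* was called close to both limits, at -1.14 (adjusted p = 0.0477), and lost the call in 5 of the 6 fits without 1 library. *Ifi35*, *Rtp4* and *Herc6* share 16.8%, 13.9% and 13.7% of their exon bases with the predicted genes *Gm11626*, *Gm45338* and *Gm45193*, so that reads there could belong to either gene. The remaining members of this group were not called. *Xaf1*, which counters an inhibitor of apoptosis, had an estimate of -0.83 (adjusted p = 0.0550) without overlap. *Ifi27l2a*, a small membrane protein gene with near copies, was at 25.7, 25.6 and 60.9 CPM against 27.2, 22.8 and 10.5 CPM, and overlapped (log2FC -0.91, adjusted p = 0.212).

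**Figure D3:**
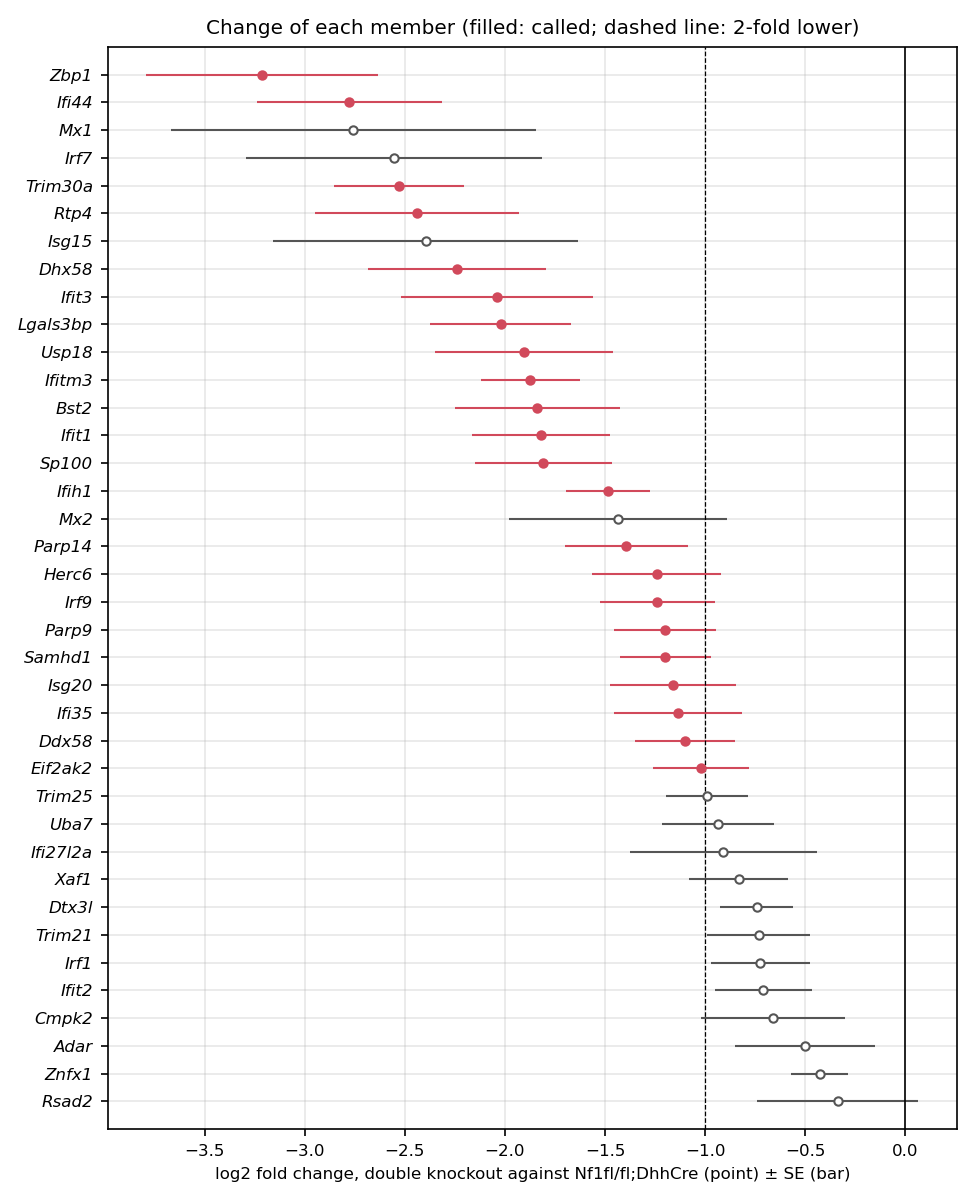
Log2 fold change of each of the 38 genes (point) with its standard error (bar) from limma-voom, labelled double knockout against *Nf1fl/fl;DhhCre*, sorted by size. Filled red points are the 22 called genes, open points the 16 others, and the dashed line marks a 2-fold decrease. All points lie left of 0, from -3.21 (*Zbp1*) to -0.34 (*Rsad2*).

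The 16 genes that were not called fall into 3 kinds. *Trim25* and *Dtx3l* passed the adjusted p with a change under 2-fold. *Irf7*, *Isg15*, *Mx1* and *Mx2* were more than 2-fold lower with an adjusted p of 0.0510 to 0.108, and all 4 were without overlap between the genotypes. The other 10 met neither limit, and *Adar*, *Rsad2*, *Cmpk2* and *Ifi27l2a* among them overlapped. In the 7 other scalings, filters, weights and tests with all 6 libraries, *Trim25* was called in 5 and *Irf7* and *Mx1* in 3 each. *Isg15* was called in 2, and *Mx2* and *Uba7* in 1 each. Of the 16 called genes with a promoter sequence 8 held an ISRE, and of the 13 not called 3 did. *Ifih1*, *Ifitm3*, *Trim30a*, *Ifi44* and *Lgals3bp* were called whichever of the 6 libraries was left out. Those 5 were the only members called without *Nf1fl/fl;DhhCre* replicate 1, and likewise without labelled double-knockout replicate 2.

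Within each genotype the genes moved by library. In 37 of the 38 genes *Nf1fl/fl;DhhCre* replicate 3 had the highest level of its genotype, the exception being *Bst2*, and replicate 2 had the lowest in 25. Within the labelled double knockout replicate 1 was highest in 26 genes and replicate 2 lowest in 25. Their mean log2 CPM was 5.43, 5.33 and 6.28 in *Nf1fl/fl;DhhCre* and 4.39, 3.99 and 4.20 in the labelled double knockout. The gap between replicate 3 and the other *Nf1fl/fl;DhhCre* libraries thus approached that between those libraries and the other genotype. Without *Nf1fl/fl;DhhCre* replicate 3, 15 of the 38 genes were called lower, where 3.12% of all genes were, and the estimate of *Rsad2* was 0.10.

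Interferon genes other than *Ifnk* were at or near 0. Of 20 type I, II and III interferon genes 15 had no count in any library, where 3 counts would have been 0.179 to 0.247 CPM. *Ifnb1*, *Ifna2* and *Ifna7* had 1 count in 1 library each, and *Ifng* had 1 count in *Nf1fl/fl;DhhCre* replicate 3 and 2 counts in labelled double-knockout replicate 2. *Ifnk*, interferon κ, was the only one tested, at 3.40, 1.13 and 4.55 CPM against 3.35, 2.06 and 2.11 CPM. Its levels overlapped, with a log2FC of -0.06 (SE 0.59, adjusted p = 0.951).

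The receptors, kinases and STATs had a smaller median log2FC than the interferon-stimulated genes, -0.73 over 11 genes. Of these 1 was called lower, where 5.36% of all genes were. In 9 every library labelled double knockout was below every *Nf1fl/fl;DhhCre* library, which held for 20.5% of all genes. *Ifnar1*, the signalling chain of the type I receptor, was at 158, 136 and 163 CPM in *Nf1fl/fl;DhhCre* and at 115, 101 and 115 CPM in the labelled double knockout (log2FC -0.45, adjusted p = 0.0485). *Ifnar2* had an estimate of -0.68 (adjusted p = 0.101). *Ifngr1*, the ligand-binding chain for interferon γ, was the one called, at -1.02 (SE 0.21, adjusted p = 0.0197), and its partner *Ifngr2* was lower by the adjusted p (0.0231) at -0.78. The number called in this list was 0 by limma-voom without *Nf1fl/fl;DhhCre* replicate 1 or 3, without labelled double-knockout replicate 2 or 3, and without both libraries with muscle genes, and it was 2 without *Nf1fl/fl;DhhCre* replicate 2. In the 6 libraries 9 of the 11 were below an unadjusted p of 0.05, edgeR called 1 and DESeq2 3.

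*Stat2* was at 79.3, 89.3 and 144 CPM against 52.7, 42.8 and 61.7 CPM, lower by the adjusted p (0.0425) at -0.95, under the 2-fold limit. *Jak1* was the only gene of the list with an estimate above 0 (0.22, adjusted p = 0.337), and *Jak2* and *Tyk2* had estimates of -0.70 and -0.73. The chains of the interferon λ receptor, *Ifnlr1* and *Il10rb*, had estimates of -1.75 (adjusted p = 0.0519) and -0.67.

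Genes of nucleic acid sensing, and further families of interferon-induced genes, were also counted. Of 16 adaptors, Toll-like receptors, factors and other genes of nucleic acid sensing, 9 were called lower, with a median log2FC of -1.55. *Aim2*, a sensor of cytosolic DNA, was at 35.6, 17.8 and 58.8 CPM against 4.54, 3.12 and 4.69 CPM (log2FC -3.01, adjusted p = 0.0231). *Tlr7*, the endosomal receptor for single-stranded RNA, was at 46.2, 55.2 and 53.2 CPM against 17.1, 5.10 and 8.38 CPM (log2FC -2.51, adjusted p = 0.00967). Both are sensors that leukocytes express.

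The oligoadenylate synthetases, which activate RNase L on viral RNA, had the lowest median, -3.55 over 8 genes with 6 called. *Oas1g* was called at -4.11 (adjusted p = 0.0481), and *Oas3* fell from 64.4, 81.4 and 160 CPM to 4.86, 3.29 and 9.64 CPM (log2FC -4.08, adjusted p = 0.0103). *Oas1c*, named after its values were seen, was the only gene of the family with an estimate above 0 (0.29), and its groups overlapped. Of 15 interferon-inducible GTPases 8 were called, with a median of -1.54, and *Tgtp2* (-2.91) and *Irgm1* (-1.99) had the largest changes among the 8 called. Of 6 genes induced mainly by interferon γ 3 were called, with *Ciita*, the master regulator of MHC class II, at -2.51 (adjusted p = 0.0355) and *Nlrc5*, its class I counterpart, at -1.36 (adjusted p = 0.0366). The third was *Gbp2* (-1.11, adjusted p = 0.0161), which is also counted among the 8 GTPases called. *Cxcl9*, *Cxcl10* and *Cd274* were not called, and their groups overlapped. *Gbp2* and these genes were named after their values were seen. Among 9 negative regulators *Ptpn6* (-2.31) and *Socs3* (-1.73) were called, and the median was -0.73. These counts changed with the libraries that were kept. Without *Nf1fl/fl;DhhCre* replicate 1 they were 1 adaptor, 4 oligoadenylate synthetases and 0 of the other 3 lists. Without labelled double-knockout replicate 2 they were 2 adaptors, 3 oligoadenylate synthetases and again 0 of the others, and without its replicate 3 they were 3 adaptors, 3 oligoadenylate synthetases, 3 GTPases, 1 interferon γ target and 1 negative regulator. Without its replicate 1 the counts in that order were 4, 3, 5, 1 and 0, and without *Nf1fl/fl;DhhCre* replicate 3 they were 8, 5, 7, 0 and 0. They were 10, 6, 9, 4 and 3 without *Nf1fl/fl;DhhCre* replicate 2. Without both libraries with muscle genes they were 9, 3, 5, 3 and 2.

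**Figure D4:**
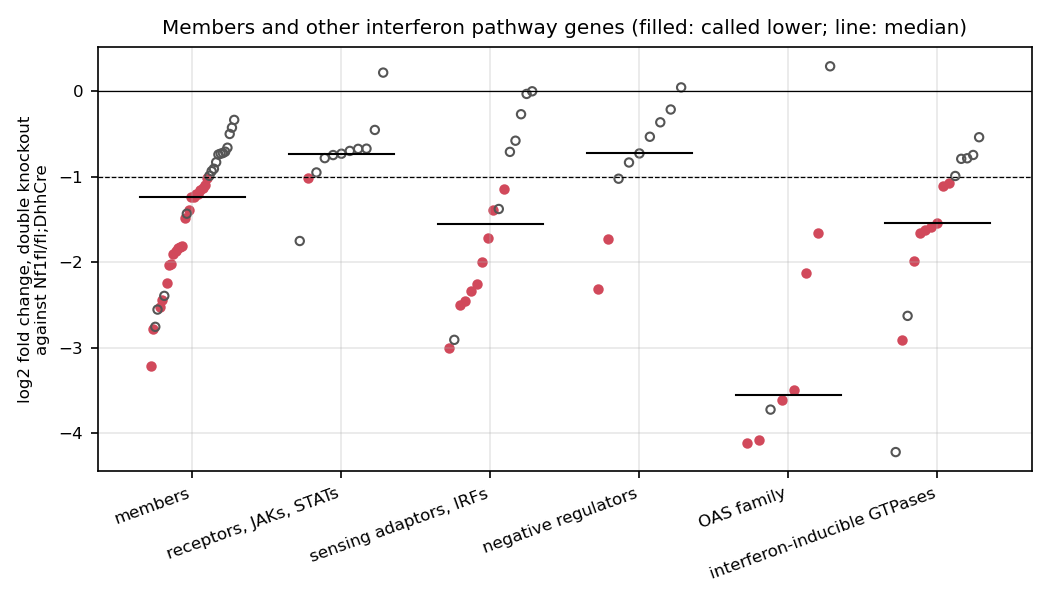
Log2 fold change, labelled double knockout against *Nf1fl/fl;DhhCre*, of the 38 genes and of each tested gene of 5 other interferon lists. Each point is 1 gene, filled where it was called lower, the horizontal bars are medians, and the dashed line marks a 2-fold decrease. The medians run from -0.73 for the receptors, kinases and STATs to -3.55 for the oligoadenylate synthetases.

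Markers of leukocytes moved with the interferon-stimulated genes. *Ptprc* (CD45), carried by all leukocytes, was at 298, 159 and 542 CPM in *Nf1fl/fl;DhhCre* and at 41.6, 18.2 and 44.6 CPM in the labelled double knockout (log2FC -3.17, adjusted p = 0.0132). Of 6 leukocyte markers 4 were called lower, none overlapped and the median log2FC was -2.83. They summed to 326 to 993 CPM against 44.2 to 105 CPM, 7.76-fold lower by the means. *Nf1fl/fl;DhhCre* replicate 3 was the highest and labelled double-knockout replicate 2 the lowest of the 6 libraries, as for the mean of the interferon-stimulated genes. Without *Nf1fl/fl;DhhCre* replicate 1 none of the 6 was called by limma-voom, and all 6 were below an unadjusted p of 0.05 in the 6 libraries, and called by DESeq2, while edgeR called 5.

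Of 13 macrophage markers 10 were called lower, with a median log2FC of -2.16, and their sum was 1256 to 2358 CPM against 222 to 533 CPM, 4.48-fold lower by the means. *Csf1r*, the receptor that macrophages depend on, was at 200, 131 and 331 CPM against 66.5, 30.7 and 47.1 CPM. *Emr1*, the older symbol of *Adgre1*, which encodes the F4/80 antigen, was at 89.4, 50.8 and 106 CPM against 19.0, 7.15 and 19.3 CPM. For both, every library labelled double knockout lay below every *Nf1fl/fl;DhhCre* library (log2FC of -2.16 and -2.47). Without *Nf1fl/fl;DhhCre* replicate 1 there was 1 macrophage marker called, and without labelled double-knockout replicate 2 there were 5. The part of the leukocytes and macrophages in the changes of the interferon-stimulated genes was not tested.

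Markers of other leukocyte types were mixed. *Cd3e* of T cells was at 3.54, 1.31 and 8.27 CPM against 1.28, 1.73 and 0.066 CPM. *Siglech*, of plasmacytoid dendritic cells, the main producers of interferon α, was at 25, 7.03 and 39.4 CPM against 13.3, 1.32 and 5.22 CPM, with overlap. Their estimates were -2.58 and -2.02, neither past the test (adjusted p = 0.205 and 0.194). Of the 9 T and NK cell markers tested 1 was called lower, *Klrb1c*, which had 43, 27 and 30 counts against 2, 1 and 0, and of the B cell (5 tested), plasmacytoid dendritic cell (3), mast cell (7) and neutrophil (5) markers limma-voom called none in either direction. At an unadjusted p below 0.05 there were 0, 1, 2 and 1 of these, edgeR called 1 neutrophil marker, and DESeq2 called 2 plasmacytoid dendritic cell markers and 1 neutrophil marker. With quality weights limma-voom called 1 mast cell marker lower. It called 1 plasmacytoid dendritic cell and 1 neutrophil marker lower without *Nf1fl/fl;DhhCre* replicate 2, and without both libraries with muscle genes 1 plasmacytoid dendritic cell marker lower and 1 neutrophil marker higher. DESeq2 also called 4 of the T and NK cell markers, and edgeR 3. By limma-voom 0 of them were called without *Nf1fl/fl;DhhCre* replicate 1 or 3, or without labelled double-knockout replicate 2 or 3. The mast cell receptor gene *Kit* was at 23.8 to 41.4 CPM against 48.4 to 64.2 CPM, while the other 6 mast cell markers had estimates below 0 and the median of the list was -0.75. The neutrophil gene *S100a9* was at 0.321 to 46.7 CPM against 7.32 to 28.7 CPM. *Klrb1c*, *Kit* and *S100a9* are named after their values were seen.

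Markers of SCs, the lineage in which *DhhCre* is active, and of neurons had median changes above 0. *Sox10*, the defining factor of the SC lineage, was at 227, 195 and 241 CPM in *Nf1fl/fl;DhhCre* and at 254, 200 and 256 CPM in the labelled double knockout (log2FC 0.10, adjusted p = 0.677). Of 9 SC markers 3 were called higher and 6 were not called, with a median of 0.10. The called ones, named after their values were seen, were *Gap43* (log2FC 1.61), *S100b* (1.52) and *Ngfr* (1.36), while *Foxd3* was below every *Nf1fl/fl;DhhCre* library in the labelled double knockout with an estimate of -0.60 (adjusted p = 0.0985). Without *Nf1fl/fl;DhhCre* replicate 1 there was 1 called. Of 14 sensory neuron markers all 14 were called higher, with *Tubb3* at a log2FC of 1.26 (adjusted p = 0.0427) and a median of 2.39. Without *Nf1fl/fl;DhhCre* replicate 1 or 3 there were 1 and 6, where 181 of 16031 and 535 of 15964 genes were called higher. With all 6 libraries 1257 of 15652 genes were called higher. Neuron markers summed to 1290 to 2647 CPM against 6421 to 14488 CPM. Of 6 fibroblast markers 4 were called lower, with a sum of 9176 to 9843 CPM against 3377 to 5600 CPM, and without *Nf1fl/fl;DhhCre* replicate 1 or labelled double-knockout replicate 2 there were 1 and 2. Without both libraries with muscle genes there was 1. The part of these shifts in the results was not tested.

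Set beside each other within a library, the mean log2 CPM of the leukocyte markers minus that of the interferon-stimulated genes was 0.20, -0.57 and 0.04 in *Nf1fl/fl;DhhCre* and -1.18, -1.82 and -0.72 in the labelled double knockout. The leukocyte markers were thus lower relative to the interferon-stimulated genes in every library of the second genotype. For the macrophage markers the same difference was 0.33, -0.08 and -0.11 against -0.26, -1.14 and -0.46.

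**Figure D5:**
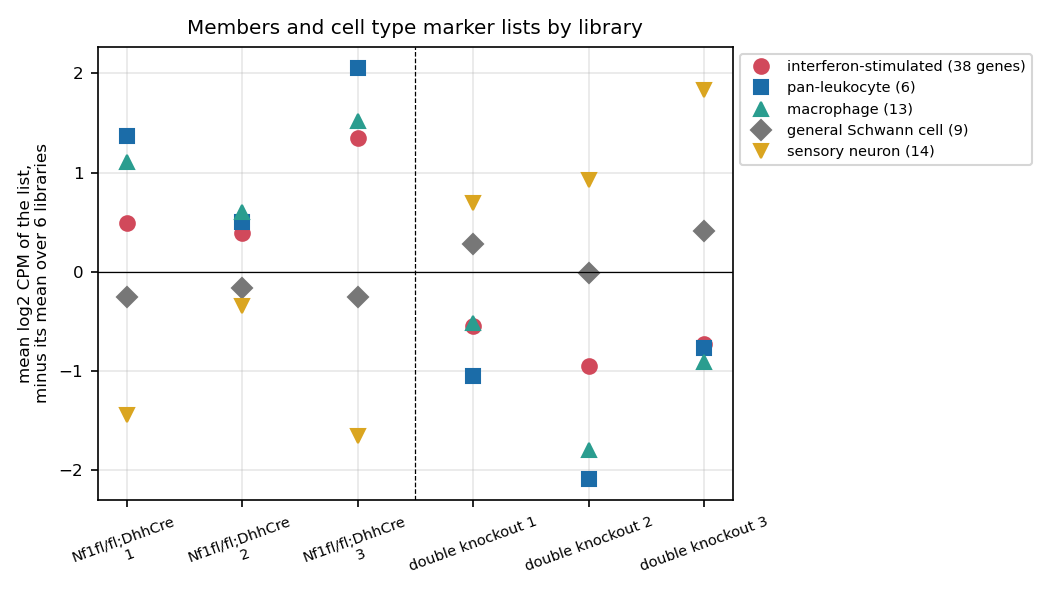
Mean log2 CPM of the 38 interferon-stimulated genes and of 4 marker lists in each library, each minus its own mean over the 6 libraries. The interferon-stimulated genes (red circles), leukocyte markers (blue squares) and macrophage markers (green triangles) are above 0 in the 3 *Nf1fl/fl;DhhCre* libraries and below 0 in the 3 labelled double-knockout libraries, while the sensory neuron markers (orange) run the other way.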

How the data were processed

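RNA from 6 mice, 3 per genotype, was amplified (NuGEN Ovation) and made into Nextera XT libraries. The authors aligned reads to mm10 with TopHat and deposited featureCounts counts per gene, unnormalized. Annotation, strand use and multi-mapping are not given in the sources used here. Replicates were numbered in label order and pair nothing, and p-values measure the spread between these libraries. Libraries of 1 genotype were compared by chi-square over genes (22.9 to 144 per degree of freedom), and none was a copy of another. Genes were kept by filterByExpr (minimum count 10, total 15), scaled by TMM (factors 0.950 to 1.04) and fitted with limma-voom (R 4.3.3, limma 3.58.1, edgeR 4.0.16), with genotype as the only term, then adjusted by Benjamini-Hochberg over all genes tested. TMM, limma-voom and the limits for a call follow the study's methods, while the filter and the single term were chosen here. Mean log2 CPM used a prior count of 0.5. Other scalings, filters, quality weights, DESeq2 1.42.0, the quasi-likelihood test of edgeR and leaving out libraries were tried as alternatives. The fit was checked on simulated data, and no value of that check is reported or used here. Gene positions are from GENCODE M21. Every member is named. In the other pathway lists the called genes with the 2 largest changes, all receptor genes and interferons with counts are named, and in the marker lists 1 or 2 defining markers, except a few not reported here. Members and lists were chosen with earlier results of these data known. Figures used matplotlib 3.10.9 in Python 3.11.15.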

Additional observations from a re-analysis of the deposited data

How the results depend on the processing

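With all 6 libraries kept, 22 to 27 of the 38 genes were called lower under every scaling, filter and test tried, and none was called higher. Library size alone, edgeR and DESeq2 gave 25, 26 and 27, where they called 962, 975 and 1236 of all genes lower. Leaving out 1 library gave 5 to 23 of the 38, with 5 without *Nf1fl/fl;DhhCre* replicate 1 and 5 without labelled double-knockout replicate 2, and 14 and 11 without its replicates 1 and 3. The median log2 fold change of the 38 genes stayed between -1.44 and -0.94 in these fits. Over all genes, the same fits gave 181 to 1028 lower and 181 to 1304 higher, against 839 and 1257. By name, 181 were lower without *Nf1fl/fl;DhhCre* replicate 1, 498 without its replicate 3, 326 without labelled double-knockout replicate 2 and 473 without its replicate 3. At the adjusted p alone 1287 genes were lower. Direction was kept in every setting by 37 of the 38 genes. *Rsad2* reversed to 0.10 without *Nf1fl/fl;DhhCre* replicate 3 (range -0.58 to 0.10 over the fits without 1 library), and *Ifnk* (range -0.65 to 0.38) went to 0.15 and 0.38 without *Nf1fl/fl;DhhCre* replicates 1 and 3 and to 0.04 and 0.06 without labelled double-knockout replicates 2 and 3. The cause was not tested. Leaving out both libraries with muscle genes, a setting chosen after seeing the data, left 16 of the 38 called. No paired analysis was possible because the labels give no replicate numbers that link mice of the genotypes. With 3 libraries a genotype, genes with a wide spread such as *Mx1* and *Isg15* can miss the test at a large estimate.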

Other observations

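Outside the interferon pathway lists, the genes whose log2 CPM over the 6 libraries was most like the mean profile of the 38 genes were *0610031J06Rik*, *Ncstn*, *F11r*, *Pram1* and *Stx16*, of 10141 genes whose average log2 CPM reached 3. Pearson's r was 0.995 to 0.997 over the 6 libraries. An r of at least 0.9 was common, held by 933 of the 10141 genes, and the number that reached 0.995 is not given here. These are descriptions over 6 libraries of 2 genotypes whose marker levels also differ. *Ncstn*, which encodes nicastrin of the γ-secretase complex, was at 61.2, 58.6 and 79.2 CPM in *Nf1fl/fl;DhhCre* and at 46.5, 39.1 and 40.9 CPM in the labelled double knockout. *F11r*, a junctional adhesion molecule, was at 50.1, 45.7 and 76.3 CPM against 31.9, 26.1 and 31.4 CPM. Among the 38 genes themselves, *Rsad2* (0.64), *Adar* (0.73), *Bst2* (0.74), *Ifi27l2a* (0.77) and *Cmpk2* (0.82) had the lowest correlation with the mean of the other members, and the highest was that of *Dtx3l* (0.997).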
